A study of Mus musculus with 2 samples.

Results

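The 10 SOX genes Sox2, Sox4, Sox5, Sox6, Sox7, Sox9, Sox11, Sox13, Sox17 and Sox18 were followed across ependymal subtypes, arterial, capillary and venous endothelial cells and mural cells of the adult mouse spinal cord. The members were named as a list, and all 10 of 10 had a row in the tables, which held 24071 genes. Cells were sorted as live, CD45-, CD133+ cells from spinal cords depleted of myelin, and were loaded on 10x Chromium with 3′ chemistry. The 2 libraries came from C57BL/6j mice, 10 to 12 weeks old, that carried Cre on both alleles of Clec9a, the gene of DNGR-1, and a Cre-dependent tdTomato reporter on both Rosa26 alleles (Clec9acre/creR26LSLtdTomato/LSLtdTomato). CD133+ DNGR-1 traced cells had reporter signal and CD133+ non-traced cells lacked it, so both groups shared the genotype and differed by the gate. Tracing marks a cell in which, or in whose ancestors, Clec9a-driven Cre was active, and says nothing of current DNGR-1. The paper describes mice of this genotype as Clec9a-deficient, which holds for both libraries. The number of animals behind each library is not given in the sources used here. With 1 library per group there was no replicate, so no test between groups was made and every interval given covers counting error alone.

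SOX proteins are transcription factors that bind the minor groove of DNA through a high mobility group (HMG) box and bend it. They are grouped by sequence: SOXB1 (Sox2) and SOXE (Sox9) keep neural progenitors and glia, SOXC (Sox4, Sox11) act in immature and differentiating cells, SOXD (Sox5, Sox6, Sox13) have no activation domain of their own and modify other SOX proteins, and SOXF (Sox7, Sox17, Sox18) govern endothelial and lymphatic fate. In the spinal cord, Sox2 and Sox9 are known in ependymal cells and astrocytes, and SOXF genes in vessels.

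The stretch of coding sequence that the 10 genes share best lay in the HMG box and is shown because it carries the family resemblance by which the results below are ordered. The sequences are from GENCODE vM21 on GRCm38, the build of the deposited counts, 78 bases each, read 5′ to 3′ along the coding strand, with capitals at the 32 bases that were identical in all 10 members.
Sox2: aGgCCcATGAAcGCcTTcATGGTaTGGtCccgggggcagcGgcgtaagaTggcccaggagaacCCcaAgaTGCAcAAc
Sox4: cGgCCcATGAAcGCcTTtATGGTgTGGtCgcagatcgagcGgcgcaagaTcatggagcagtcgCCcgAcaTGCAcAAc
Sox11: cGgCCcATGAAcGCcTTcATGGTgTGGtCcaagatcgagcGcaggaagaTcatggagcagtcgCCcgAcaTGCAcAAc
Sox5: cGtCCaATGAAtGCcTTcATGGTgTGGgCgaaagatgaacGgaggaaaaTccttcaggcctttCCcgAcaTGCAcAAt
Sox6: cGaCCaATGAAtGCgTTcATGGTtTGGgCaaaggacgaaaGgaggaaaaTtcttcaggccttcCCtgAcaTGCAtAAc
Sox13: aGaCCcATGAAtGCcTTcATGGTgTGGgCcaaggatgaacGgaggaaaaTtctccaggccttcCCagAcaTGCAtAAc
Sox9: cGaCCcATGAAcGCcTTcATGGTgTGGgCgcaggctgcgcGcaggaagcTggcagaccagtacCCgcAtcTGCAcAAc
Sox7: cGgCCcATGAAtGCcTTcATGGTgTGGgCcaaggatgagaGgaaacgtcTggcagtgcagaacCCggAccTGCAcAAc
Sox17: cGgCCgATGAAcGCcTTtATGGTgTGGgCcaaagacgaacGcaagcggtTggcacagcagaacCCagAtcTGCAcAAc
Sox18: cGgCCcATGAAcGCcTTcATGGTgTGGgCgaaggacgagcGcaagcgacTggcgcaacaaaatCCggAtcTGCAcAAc
These windows lay in coding sequence and in a single exon in all 10 genes, at chr3:34650548-34650625 (Sox2), chr13:28952764-28952841 (Sox4), chr12:27342181-27342258 (Sox11), chr6:143841196-143841273 (Sox5), chr7:115489685-115489762 (Sox6), chr1:133385488-133385565 (Sox13), chr11:112782903-112782980 (Sox9), chr14:63943894-63943971 (Sox7), chr1:4493122-4493199 (Sox17) and chr2:181671204-181671281 (Sox18). Over the surrounding 210 coding bases, pairs of the same sub-family shared between 78.1% (Sox7 and Sox18) and 91.0% (Sox4 and Sox11) of bases, and the 38 pairs from different sub-families shared between 55.7% (Sox6 and Sox18) and 77.6%. The 3 SOXF genes, which were the vascular members here, shared 82.4% (Sox7 and Sox17), 84.3% (Sox17 and Sox18) and 78.1% of these bases.

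The cells used were the 25991 of 30236 barcodes that fell in 13 named groups, 21299 of the non-traced and 4692 of the traced library. The non-traced library gave 14635 capillary, 3106 arterial and 2298 venous cells, 111 pericytes, 74 smooth muscle cells, and 607 non-midline, 77 Anxa8-Sncg-Pvalb, 375 ventral-midline and 16 cycling ependymal cells. The traced library gave 3505 non-midline, 887 Anxa8-Sncg-Pvalb, 200 ventral-midline and 100 cycling ependymal cells. Anxa8-Sncg-Pvalb cells are named by a fixed list of these 3 genes from an earlier account, and ventral-midline cells by a marker list that held Foxa2, Foxa1 and Ntn1. Each class held the markers by which it had been named. In both all-ependymal groups 10 of 10 ependymal markers were found in at least 50% of cells. So were 8 of 8 endothelial markers in arterial, capillary and venous cells. Pericytes held 10 of 10 pericyte markers and smooth muscle cells 7 of 8 smooth muscle markers. Subtype lists were held less fully, at 8 of 12 arterial, 9 of 10 capillary and 7 of 12 venous markers. Ventral-midline cells held 1 of 4 (traced) and 0 of 4 (non-traced) of their markers, and cycling cells 2 of 10 and 1 of 10. Anxa8-Sncg-Pvalb cells held 1 of 3 in both libraries. Pericytes also held 2 of 8 endothelial markers, and smooth muscle cells 3 of 8 and 7 of 10 pericyte markers. Median depth was 6536 UMIs in capillary, 7082.5 in arterial, 10152 in venous and 3603 in pericyte barcodes, and between 6859 and 11140.5 in ependymal groups. A level below is the CPM of a gene, its UMIs per 1000000 UMIs summed over the cells of a group, with the exact 95% Poisson interval in parentheses. The reporter row stood at 317 CPM in traced and 71.4 in non-traced ependymal cells. The non-traced library held 25411 barcodes and 233318692 UMIs and the traced library 4825 barcodes and 46530507 UMIs, and 42 barcodes were found in both. Another 4245 barcodes were in no named group, mostly because they held markers of more than 1 cell type. Among them were 2076 mural barcodes with endothelial-marker UMIs and 722 barcodes with ependymal and endothelial markers. Whether such barcodes were single cells or mixtures was not tested. The paper describes non-traced cells with ependymal and angiogenic genes as a hybrid phenotype, and such cells may be among those set apart. Since 3′ capture differs between genes, levels are compared across cells and not between genes.

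The members divided between ependymal and endothelial cells. Sox2, Sox9, Sox4, Sox11, Sox5 and Sox6 stood higher in ependymal than in endothelial cells of the same library, and Sox7, Sox17, Sox18 and Sox13 stood higher in endothelial cells. All 10 members differed by at least 2-fold, where 47.9% of the 12108 genes that reached 5 CPM in either group did. Sox2 was 1070 times (911 to 1260), Sox6 238 times (183 to 313), Sox11 135 times (87.4 to 218), Sox5 62.4 times (47.6 to 82.4) and Sox9 28.1 times (27.1 to 29.2) lower in endothelial cells. Sox18 was 62.1 times (49.3 to 79.4), Sox17 48.1 times (37.9 to 62.1) and Sox7 33.9 times (22.1 to 54.7) higher there. The median log2 difference of the 10 members was -2.91, against -0.12 over those genes.

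**Figure D1:**
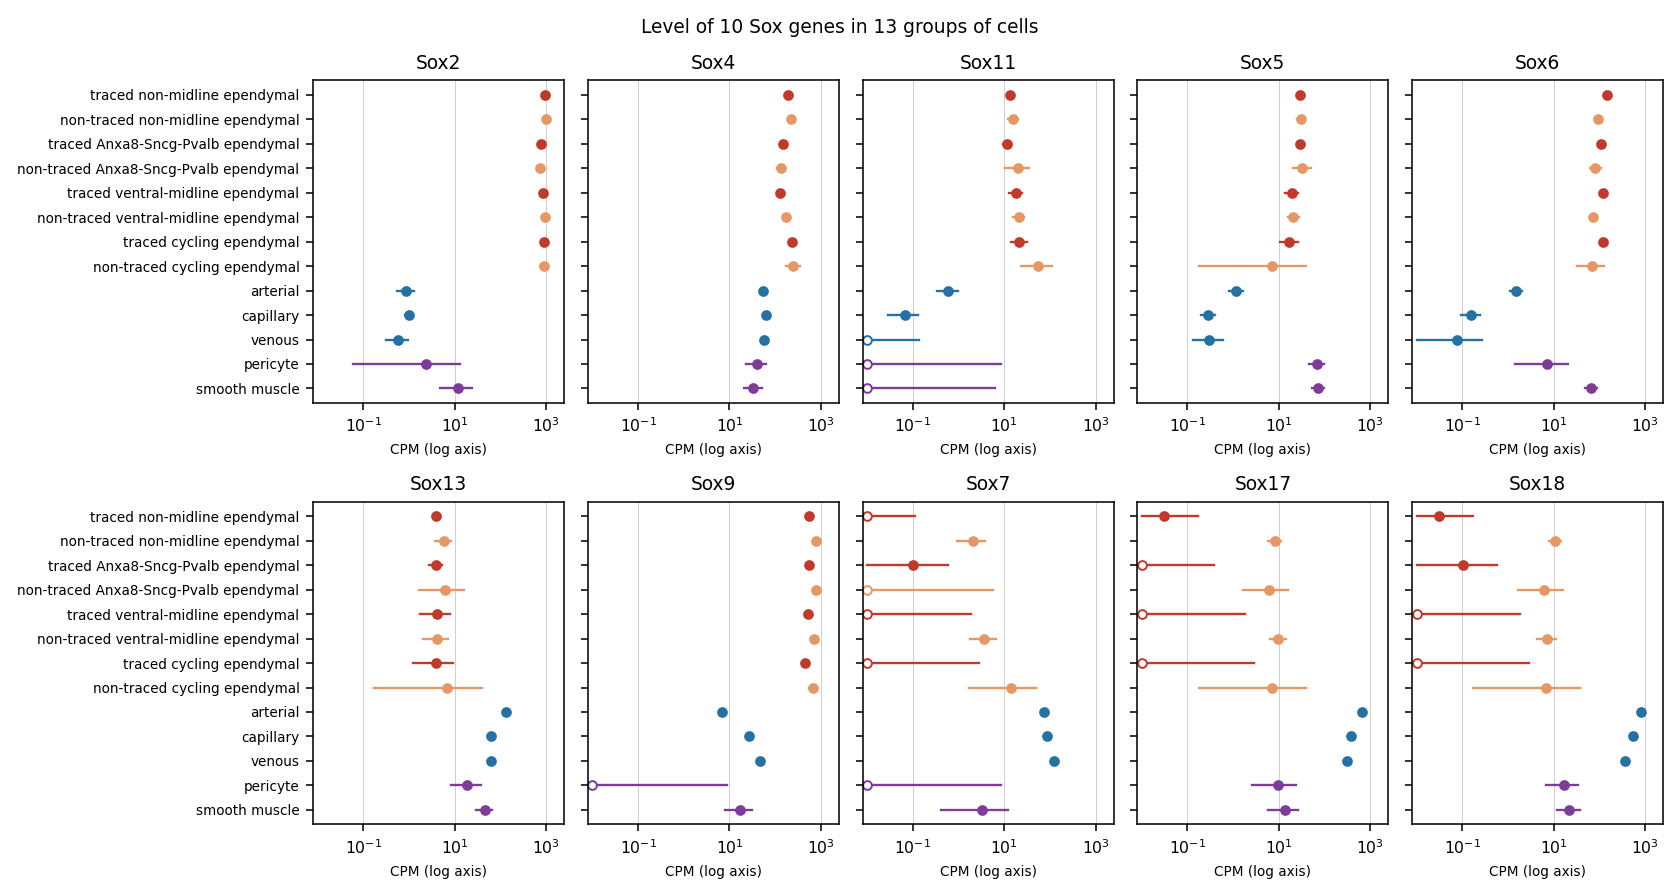
Level of each member (CPM, log axis) in the 13 groups of cells, with points for the summed level, lines for the 95% Poisson interval, and open points drawn at the left edge where no UMI was counted. Red marks traced and orange non-traced ependymal cells, blue endothelial and purple mural cells. Sox2 lies between 751 and 1000 in every ependymal group and at 11.7 or below elsewhere, and Sox17 lies between 303 and 668 in endothelial cells and at 13.4 or below elsewhere.

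Sox2 (ENSMUSG00000074637.7, chr3:34650405-34652461, plus strand), a pluripotency and neural stem cell factor, was near uniform along the ependyma. In the traced library its level was 968 (957 to 979) in non-midline, 772 (755 to 790) in Anxa8-Sncg-Pvalb, 855 (815 to 897) in ventral-midline and 907 (856 to 960) in cycling cells. In the non-traced library the same groups had 1000 (974 to 1030), 751 (686 to 820), 926 (891 to 963) and 893 (746 to 1060). Anxa8-Sncg-Pvalb cells were lowest in both libraries, at 0.798 times the non-midline level in traced cells (interval 0.778 to 0.818). A Sox2 UMI was found in 99.3% of traced and 98.1% of non-traced ependymal cells, and in 58.0% (56.5 to 59.4) and 58.6% (55.6 to 61.6) once each cell was thinned to 1000 UMIs.

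In endothelial cells Sox2 was at 0.851 (arterial), 0.976 (capillary) and 0.563 (venous), that is 0.0892%, 0.102% and 0.0590% of its non-traced ependymal level. The 10 summed ependymal markers stood at 0.109%, 0.121% and 0.0896% in those cells, so that the share of Sox2 was no higher than that of the summed list. In smooth muscle all 7 Sox2 UMIs (11.7 CPM) lay in 1 of 74 cells. The level was 1.23% (0.492 to 2.53) of the ependymal one, where the marker list was at 1.25%. Sox2 lies inside the long noncoding Sox2ot on the same strand, though no exon base of the gene overlaps a Sox2ot exon. Sox2ot stood at 89.2 in traced and 101 in non-traced ependymal cells and reached 5 CPM in no endothelial group.

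Sox9 (ENSMUSG00000000567.5, chr11:112782224-112787760, plus strand), which drives gliogenesis and chondrogenesis, was found in every ependymal subtype. It was lower in traced than in non-traced cells of each subtype: 549 (541 to 557) against 786 (760 to 813) in non-midline, 543 (528 to 558) against 783 (717 to 854) in Anxa8-Sncg-Pvalb, 518 (487 to 551) against 704 (673 to 736) in ventral-midline and 453 (417 to 491) against 678 (551 to 827) in cycling cells. Over all named ependymal cells the traced level was 0.719 times the non-traced one (0.699 to 0.740). After thinning, 38.9% (37.5 to 40.3) of traced and 48.5% (45.4 to 51.5) of non-traced ependymal cells had a Sox9 UMI.

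Within the traced non-midline cells, Sox9 ran from 349 (336 to 363) in the sub-cluster led by Gm42418, through 436 (423 to 450) in that led by Rn7sk and Hoxd10 and 556 (534 to 579) in that led by Tmem163, to 777 (761 to 794) in that led by Junb and Atf3. Sox4 followed in the same order, at 128, 148, 210 and 275. The summed level of a list of 6 stress and immediate early genes moved with them, at 738, 1160, 6340 and 13300 CPM, and its part in the Sox9 and Sox4 levels was not tested. Sox2 kept the same order over a narrower range, at 843, 922, 1020 and 1070, and the part of the stress list in it was not tested either. Sox6 was at 133, 144, 161 and 149 in these 4 sub-clusters. The non-traced non-midline cells had Sox9 at 786 with a stress list of 6420.

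Sox9 was also found in vessels, in an order that Sox2 did not share. It stood at 7.03 (6.07 to 8.11) in arterial, 26.8 (25.8 to 27.7) in capillary and 47.6 (45.0 to 50.3) in venous cells. The share of cells with a Sox9 UMI after thinning was 0.612% (0.369 to 0.954), 2.65% (2.40 to 2.92) and 5.13% (4.27 to 6.12), and unthinned 4.44%, 15.5% and 32.8%. As a share of the ependymal level these were 0.930%, 3.54% and 6.30%, where the ependymal marker list stood at 0.109%, 0.121% and 0.0896%. The summed astrocyte markers were at 105, 86.4 and 59.9 CPM in arterial, capillary and venous cells. The part of RNA from ependymal cells or astrocytes in these Sox9 levels was not tested. In pericytes no Sox9 UMI was counted among 111 cells, which allows a level of up to 7.09 CPM at 3 counts. Smooth muscle had 10 Sox9 UMIs, all in 2 cells.

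Among SOXC genes, Sox4 (ENSMUSG00000076431.4, chr13:28948919-28953713, minus strand) was found in every group. Its level was between 128 and 249 in ependymal groups, 53.3 (50.6 to 56.2) in arterial, 62.5 (61.1 to 63.9) in capillary, 57.8 (55.0 to 60.8) in venous cells, 40.2 (23.4 to 64.3) in pericytes and 33.4 (20.4 to 51.6) in smooth muscle. Ependymal Sox4 was thus 3.33 times the endothelial level (3.16 to 3.51), the smallest difference among the 10 members. The 2 mural groups did not differ beyond counting error (smooth muscle to pericyte ratio interval 0.414 to 1.69). Of the 4 ependymal subtypes of each library, cycling cells had the highest level, at 231 (205 to 258) traced and 249 (175 to 345) non-traced, and the latter interval held the non-traced non-midline level of 226. The traced non-midline sub-cluster led by Junb and Atf3 was higher, at 275 (266 to 285).

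Sox11 (ENSMUSG00000063632.6, chr12:27334264-27342574, minus strand), a factor of young neurons and progenitors, was low and ependymal. It stood at 13.3 (12.3 to 14.4) in traced and 18.6 (15.7 to 21.9) in non-traced ependymal cells, and at 0.138 (0.0881 to 0.205) in endothelial cells. Traced cycling cells had 21.5 (14.3 to 31.1) against 13.1 (11.9 to 14.5) in traced non-midline cells, a ratio whose interval was 1.08 to 2.40. The 16 non-traced cycling cells had 55.4 (23.9 to 109) from 8 UMIs. No Sox11 UMI was counted in venous or mural cells.

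Of the SOXD genes, Sox5 stood in ependyma and both mural groups, Sox6 mainly in ependyma and smooth muscle, and Sox13 mainly in endothelial cells. Sox5 (ENSMUSG00000041540.16, chr6:143828425-144781977, minus strand), known from cartilage and cortical neurons, stood at 28.4 (26.8 to 30.0) in traced and 26.4 (23.0 to 30.3) in non-traced ependymal cells. It was higher in the mural wall, at 68.5 (45.9 to 98.4) in pericytes and 73.5 (53.4 to 98.7) in smooth muscle, where 23 of 111 and 29 of 74 cells had a UMI. Endothelial cells had 0.424 (0.333 to 0.532). Among ependymal subtypes, traced ventral-midline cells had 0.654 times the non-midline level (0.460 to 0.904), and non-traced ones 0.695 times (0.499 to 0.958).

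Sox6 (ENSMUSG00000051910.13, chr7:115470872-116038796, minus strand), the close relative of Sox5, separated the mural groups. It stood at 66.8 (47.7 to 91.0) in smooth muscle, from 40 UMIs in 27 of 74 cells, and at 7.09 (1.46 to 20.7) in pericytes, from 3 UMIs in 3 of 111 cells, so that the pericyte level was 0.106 times the smooth muscle one (0.0210 to 0.333). Sox6os, which runs antisense to Sox6, was counted at 30.1 in smooth muscle, and no exon bases of the 2 genes overlap. In the ependyma Sox6 was the member of clearest excess in traced cells, at 136 (133 to 140) against 84.4 (78.1 to 91.0), 1.62 times (1.49 to 1.75). The ratio was 1.58 (1.42 to 1.75) within non-midline and 1.69 (1.39 to 2.04) within ventral-midline cells. It was the only neural member above 1 in those 3 comparisons with an interval clear of 1.

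Sox13 (ENSMUSG00000070643.11, chr1:133382303-133424377, minus strand) was the SOXD gene with its highest level in endothelial cells. It stood at 133 (128 to 137) in arterial, 61.2 (59.8 to 62.6) in capillary and 61.1 (58.2 to 64.1) in venous cells, at 45.1 (29.7 to 65.6) in smooth muscle and 18.9 (8.16 to 37.2) in pericytes, and between 3.84 and 6.92 in ependymal groups. The endothelial level was 13.9 times the non-traced ependymal one (10.3 to 19.4). Its ependymal level was 5.19 (3.72 to 7.04) in the library that held the endothelial cells and 3.93 (3.38 to 4.55) in the traced library, which did not differ beyond counting error.

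SOXF genes were vascular. Sox17 (ENSMUSG00000025902.13, chr1:4490931-4497354, minus strand), an arterial and endodermal factor, stood at 668 (658 to 678) in arterial, 373 (370 to 377) in capillary and 303 (296 to 309) in venous cells. Sox18 (ENSMUSG00000046470.5, chr2:181669836-181671640, minus strand), which starts lymphatic fate in embryonic veins, stood at 824 (814 to 835), 554 (550 to 558) and 360 (352 to 367). Sox7 (ENSMUSG00000063060.6, chr14:63943673-63950732, plus strand), which acts in early vessel and blood formation, ran the other way, at 75.1 (71.8 to 78.4), 85.9 (84.3 to 87.6) and 123 (119 to 128). Shares of cells after thinning kept these orders, with Sox17 in 47.6%, 29.5% and 26.5%, Sox18 in 52.4%, 38.5% and 28.8% and Sox7 in 6.41%, 7.41% and 11.2% of arterial, capillary and venous cells. The 46 endothelial cells of the traced library, not split by vessel type, had Sox17 at 568 (500 to 642), Sox18 at 722 (645 to 805) and Sox7 at 67.0 (45.2 to 95.7).

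Between arterial and capillary cells 2 members differed by at least 2-fold, beside 5.61% of 9935 genes. Sox13 was 2.17 times higher in arterial cells (2.08 to 2.26) and Sox9 3.81 times lower (3.29 to 4.43). Sox17 was 1.79 times (1.76 to 1.82) and Sox18 1.49 times (1.47 to 1.51) the capillary level, while Sox7 was 0.874 times (0.833 to 0.916) and Sox4 0.854 times (0.807 to 0.904). With clusters named over both libraries together the arterial Sox7 difference turned, from -0.19 to 0.15 on the log2 scale. Between venous and capillary cells no member reached 2-fold, beside 2.65% of 9785 genes. Venous Sox9 was 1.78 times (1.67 to 1.90) and venous Sox7 1.44 times (1.38 to 1.49) the capillary level, venous Sox17 0.811 times (0.792 to 0.830) and Sox18 0.650 times (0.636 to 0.664), and Sox13 did not differ beyond counting error (0.998, 0.945 to 1.05). The summed stress list was 8540 in arterial, 11000 in capillary and 14600 in venous cells, and its part in the Sox7 and Sox9 orders was not tested.

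**Figure D2:**
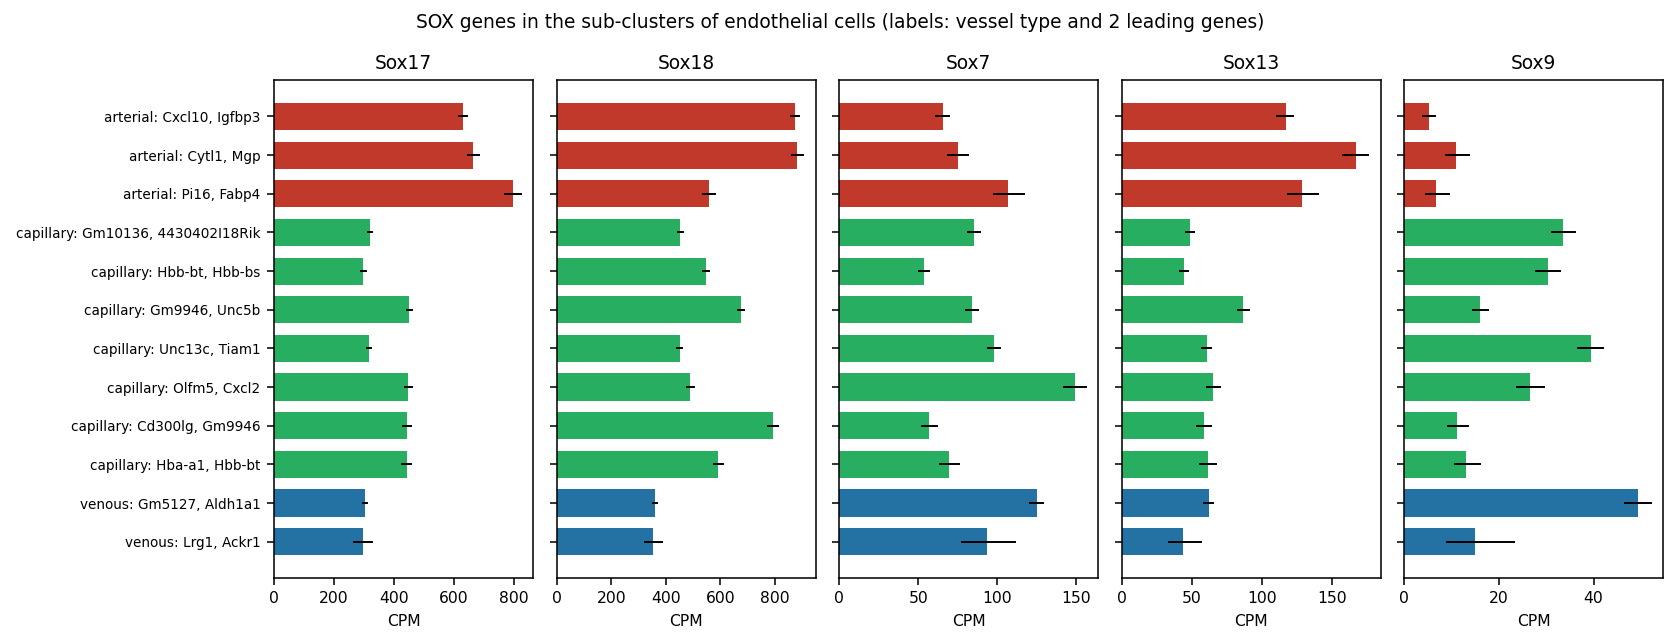
Levels (CPM, linear axes from 0) of 5 members in the 12 endothelial sub-clusters, each labelled by vessel type and its leading genes, with bars for the summed level and black lines for the 95% Poisson interval. Sox18 is lowest of the arterial sub-clusters in that led by Pi16 (558), where Sox17 is highest (796), and Sox9 is highest in the venous sub-cluster led by Gm5127 (49.3) and low in that led by Lrg1 (14.9).

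The sub-clusters showed that the members did not move as a block. In the arterial sub-cluster led by Pi16 and Fabp4 (483 cells), Sox17 was at 796 (771 to 823) and Sox18 at 558 (536 to 580), whereas in the other arterial sub-clusters Sox17 was at 631 and 665 and Sox18 at 875 and 883. The same 483 cells held 36 of the 41 arterial Sox6 UMIs and 14 of the 16 arterial Sox11 UMIs, at 7.98 (5.59 to 11.1) and 3.10 (1.70 to 5.21) CPM. Their Sox7 was at 107 (97.8 to 117), against 65.5 and 75.0 in the other arterial sub-clusters. The venous sub-cluster led by Gm5127 had Sox7 at 125 (121 to 129), and that led by Lrg1 at 93.3 (77.7 to 111). Of the venous cells, the 2176 led by Gm5127 and Aldh1a1 had Sox9 at 49.3 (46.6 to 52.1), and the 122 led by Lrg1, Ackr1 and Selp had it at 14.9 (9.12 to 23.1).

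Capillary sub-clusters ranged from 297 to 451 for Sox17, from 452 to 795 for Sox18, from 44.3 to 86.8 for Sox13, from 11.2 to 39.4 for Sox9 and from 53.6 to 149 for Sox7. The sub-cluster led by Gm9946 and Unc5b, with the arterial genes Efnb2 and Hey1 among its leading genes, had the highest capillary Sox17 (451) and Sox13 (86.8) and a Sox9 of 16.1. The sub-cluster led by Unc13c and Tiam1 had the highest capillary Sox9 (39.4). Sox7 was highest, at 149, in the sub-cluster led by Olfm5 and Cxcl2, where the stress list was also highest (18200), and lowest in the sub-clusters led by Hbb-bt (53.6) and Cd300lg (57.1), where that list was at 3000 and 2810. In the other 4 capillary sub-clusters the 2 did not follow one order: where the list was at 15200, 13800, 12700 and 10100, Sox7 stood at 85.2, 69.7, 98.2 and 83.8. The part of the stress response in these Sox7 levels was not tested.

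Outside the endothelium, SOXF genes stood at low shares of their endothelial level, as the endothelial markers did. In non-traced ependymal cells Sox7, Sox17 and Sox18 were at 2.66 (1.64 to 4.06), 8.48 (6.57 to 10.8) and 9.11 (7.13 to 11.5) CPM, that is 2.95% (1.83 to 4.52), 2.08% (1.61 to 2.64) and 1.61% (1.26 to 2.03) of the endothelial level. The 8 endothelial markers were at 1.14% to 2.16% of theirs in the same cells, 1.55% when summed. Ependymal barcodes with over 20 endothelial-marker UMIs per 10000 had been set apart. So had the 722 barcodes of clusters with ependymal and endothelial markers. Both steps limit these percentages by construction. In traced ependymal cells, whose library held few endothelial cells, the markers were at 0.0481% and the 3 SOXF genes had 1, 1 and 2 UMIs in 4692 cells. Sox13, by contrast, was at 7.18% (5.15 to 9.74) of its endothelial level in non-traced and 5.44% (4.67 to 6.31) in traced ependymal cells.

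**Figure D3:**
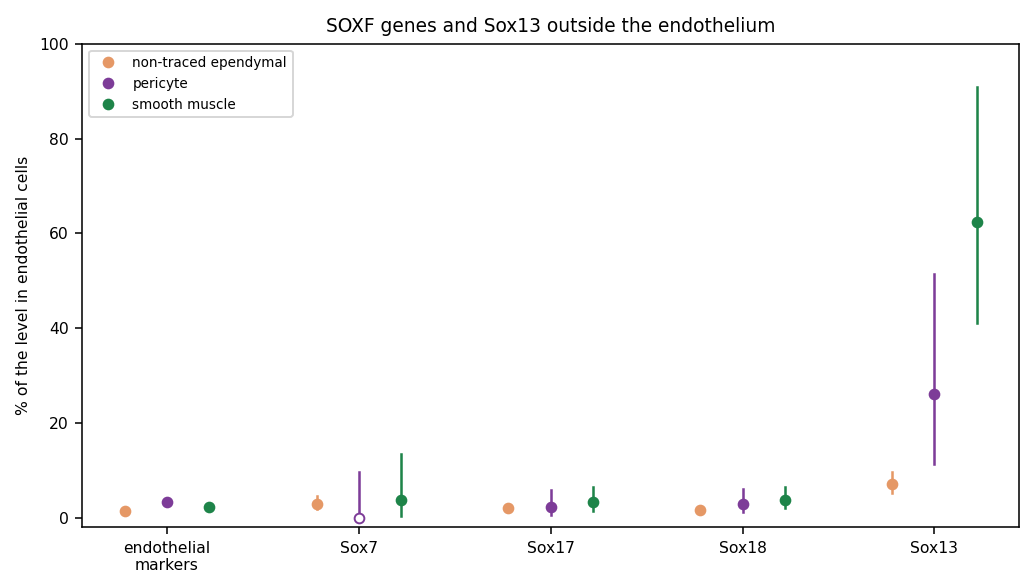
Level in non-traced ependymal cells, pericytes and smooth muscle cells as a percent of the level in all named endothelial cells, for the 8 summed endothelial markers, the SOXF genes and Sox13, with 95% intervals from counting and an open point where no UMI was counted. The SOXF points lie between 0 and 3.84%, near the 1.55% to 3.28% of the markers, and Sox13 lies at 26.1% in pericytes and 62.4% in smooth muscle.

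In mural cells 7 members differed from capillary cells by at least 2-fold, beside 35.3% of 10965 genes. Sox5 (254 times, 167 to 393) and Sox6 (268 times, 153 to 486) were higher in mural cells, and so was Sox2, by the UMIs of 2 cells. Sox7, Sox17 and Sox18 were 43.9 (12.1 to 363), 31.8 (18.2 to 61.5) and 28.3 times (18.3 to 46.3) lower, and Sox9 was 2.73 times lower (1.49 to 5.71). Without the barcodes called as doublets the Sox2 difference was gone (-0.01 on the log2 scale, against 2.16), and Sox9 was lower still (-3.81, against -1.36). Sox13 was 0.559 times the capillary level (0.389 to 0.779). Without barcodes that held UMIs of 2 or more markers of another class its log2 difference went from -0.82 to -2.18. The mural SOXF levels were 2.18%, 2.88% and 3.46% of the endothelial ones where the endothelial markers were at 2.67%. The same limit on endothelial-marker UMIs had been applied to mural barcodes. Between smooth muscle and pericytes, where 30.7% of 10940 genes differed by at least 2-fold, Sox6, Sox13, Sox2 and Sox9 did, the last 2 through 7 and 10 UMIs in 1 and 2 smooth muscle cells. Sox13 was 2.39 times higher in smooth muscle (1.05 to 6.08), and Sox5 did not differ beyond counting error (interval of the ratio 0.656 to 1.78).

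Traced and non-traced ependymal cells were close in most members. Over all named ependymal cells, Sox17 and Sox18 were the members past 2-fold that reached 5 CPM, both lower in traced cells, beside 3.04% of 11301 genes. Sox17 was 386 times lower (66.9 to 15500) and Sox18 207 times lower (55.3 to 1740), from 1 and 2 traced UMIs. Sox7 was below 5 CPM in both, at 0.0220 in traced and 2.66 in non-traced cells, and was 121 times lower (19.5 to 5000) in traced cells, from 1 against 21 UMIs. Those 3 genes moved with the endothelial RNA described above, whose markers were at 13.6 CPM in traced and 438 in non-traced ependymal cells, and its part in their difference was not tested. Sox17 and Sox18 passed within non-midline cells, beside 2.22% of 11151 genes, and within ventral-midline cells, beside 4.48% of 11557 genes. Of the other 7 members, outside SOXF, Sox6 was 1.62 times higher and Sox9 1.39 times lower (1.35 to 1.43) in traced cells, Sox11 was 1.40 times lower (1.16 to 1.68), Sox4 1.10 times lower (1.04 to 1.16) and Sox2 1.04 times lower (1.01 to 1.06), while the intervals for Sox5 (0.926 to 1.25) and Sox13 (0.537 to 1.09) held 1. The stress list was at 5530 in traced and 6250 in non-traced ependymal cells. Gate and library cannot be told apart here.

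**Figure D4:**
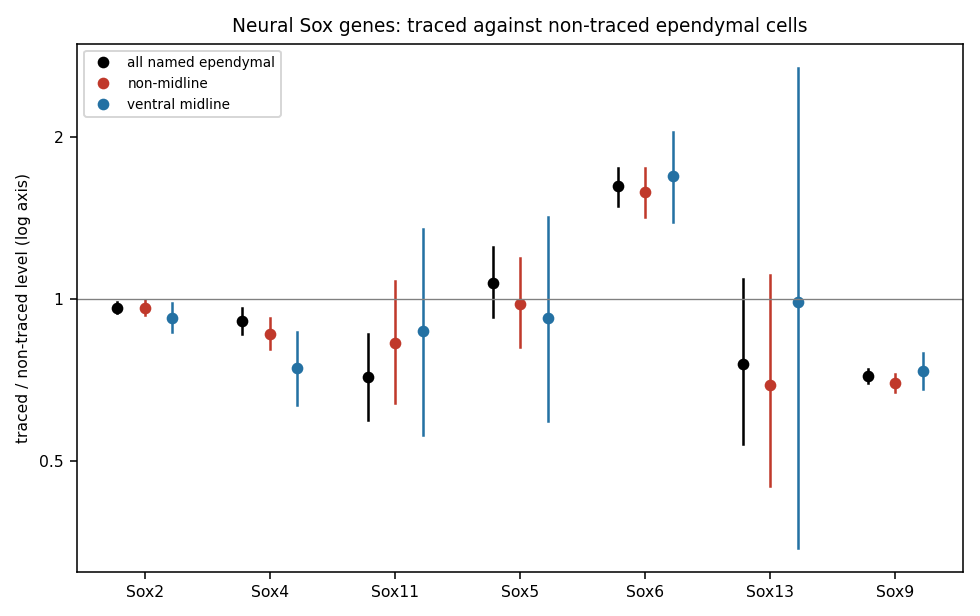
Ratio of the traced to the non-traced level (log axis) of the 7 neural and SOXD members over all named ependymal cells (black), non-midline cells (red) and ventral-midline cells (blue), with 95% conditional binomial intervals. Sox6 lies at 1.62, 1.58 and 1.69 and Sox9 at 0.719, 0.698 and 0.736.

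In the 4 comparisons of ependymal subtypes made within a library, every member that reached 5 CPM differed by less than 2-fold. These were ventral-midline against non-midline cells, where 6.75% of 11451 genes passed in the traced and 5.97% of 11425 in the non-traced library, traced Anxa8-Sncg-Pvalb against non-midline cells, where 1.64% of 11049 did, and traced cycling against non-midline cells, where 9.67% of 11672 did. Sox4 was lower in ventral-midline cells in both libraries, at 0.658 times (0.578 to 0.745) the non-midline level in traced and 0.762 times (0.681 to 0.851) in non-traced cells. The 77 non-traced Anxa8-Sncg-Pvalb and 16 non-traced cycling cells were not compared in this way. Sox11 stood at 55.4 (23.9 to 109) in those 16 cells against 15.9 (12.4 to 20.1) in non-traced non-midline cells, and Sox5 at 6.92 from 1 UMI against 29.8.

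Cells with UMIs of SOXF and of Sox2 or Sox9 were counted after thinning each to 1000 UMIs. Both kinds were found together in 0 of 4692 traced ependymal cells, which allows a share of up to 0.0639%, in 0.930% (0.447 to 1.70) of non-traced ependymal cells, in 0.451% of arterial, 1.55% of capillary and 2.83% of venous cells, and in 20.8% (17.9 to 23.9) of the 722 barcodes set apart for holding ependymal and endothelial markers. Unthinned, the shares were 0.0853%, 13.2%, 5.05%, 15.9%, 32.9% and 95.2%. The vascular shares followed the order of Sox9.

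Other SOX rows were read beside the members. Of Sox1, Sox3, Sox8, Sox12 and Sox21, which reached 5 CPM in a named group, Sox1 and Sox21, relatives of Sox2, were ependymal, at 61.0 and 55.2 in traced and 56.7 and 67.6 in non-traced cells. Sox12, the third SOXC gene, was highest in cycling ependymal cells, at 22.3 traced and 20.8 non-traced, from 29 and 3 UMIs. Over all named ependymal cells it was at 10.9 traced and 13.3 non-traced. Venous, capillary and arterial cells had 12.7, 4.68 and 1.04. Sox3 and Sox8 peaked at 9.60 in non-traced ventral-midline and 8.46 in traced cycling cells.

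Genes linked to each branch were read from fixed lists. Some genes of the SOXF list had also served as markers to name the groups. These were Cdh5 and Cldn5 for endothelial, Efnb2 and Dll4 for arterial, and Vcam1 and Nr2f2 for venous cells. Their differences between those groups were thus set in part by the naming. Of 15 genes known downstream of SOXF or as vessel identity genes, 13 were at least 2-fold higher and 1 lower (Prox1, the lymphatic factor) in endothelial than in non-traced ependymal cells, with a median log2 difference of 4.51. Of all 12108 genes tested, 2311 were higher and 3485 lower, with a median of -0.12. Between arterial and capillary cells, Vcam1 (230 against 20.1) and Efnb2 (129 against 56.9) were higher and Kdr (262 against 556) and Nr2f2 (7.55 against 28.7), the venous factor, lower, with a median of 0.05 against 0.02 over all 9935 genes, of which 380 were higher and 177 lower. Between venous and capillary cells, Vcam1 (562) and Nr2f2 (142) were higher and Dll4 (26.1 against 66.4) and Efnb2 (13.1) lower, beside 160 higher and 99 lower of 9785 genes. Every gene named in this comparison, and all but Kdr in the arterial one, was in the lists that named arterial or venous cells. These differences are thus not independent of the naming. Of 16 genes linked to neural SOX factors, 14 reached 5 CPM, 10 of them were at least 2-fold lower in endothelial cells, among them Id4 (1.34 against 289), Pax6 (0.0860 against 115) and Fabp7 (0.361 against 88.6), and Nes (295 against 18.0) and Apcdd1 (34.1 against 1.01) were higher. In mural against capillary cells 12 genes of the SOXF list were lower and 1 higher (Nr2f2, 447 against 28.7), of 14 that reached the filter, beside 1877 lower and 1990 higher of 10965 genes. Between traced and non-traced ependymal cells the SOXF list had 5 lower and 0 higher of 11, and the neural list 1 lower of 13 (Nes, 7.34 against 18.0), beside 230 lower and 113 higher of 11301 genes. Of the SOXF list 13 of 15 genes, and Nes, were higher in endothelial cells, and the summed endothelial markers moved with them, at 13.6 in traced and 438 in non-traced cells. Their part in these differences was not tested.

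The genes most like a member over the 13 groups were found by Pearson's r of log2(CPM + 1) among 10788 genes that reached 20 CPM in a group. The groups share libraries and fall into ependymal, endothelial and mural blocks, so high values were common and are given as a description. Sox17 and Sox18 were each other's nearest gene (0.996), followed by Mmrn2 (0.994) and Cdh5 (0.993) for Sox17 and Srgn (0.995) and Tek (0.991) for Sox18. The nearest to Sox7 was Piezo1 (0.993), to Sox13 Bnip2 (0.988), to Sox2 Nnat (0.999), to Sox9 Ang (0.991), to Sox4 Ppa1 (0.980), to Sox11 Fam124a (0.998), to Sox5 Prickle2 (0.988) and to Sox6 Rragd (0.990).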

How the data were processed

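Live CD45- CD133+ cells of mouse spinal cord were profiled as 1 non-traced and 1 DNGR-1 traced library. The authors deposited raw UMI counts per gene and cell, made with Cell Ranger 3.0.2 on mm10; the submitters' processing notes also name STAR 2.5.1b, R 3.6.0 and Seurat 3. All 25411 and 4825 deposited barcodes, of at least 1011 and 1013 UMIs, passed the filter of 50 genes with at most 10% mitochondrial genes. Clustering followed Seurat integration of both (version 5.3.0, under R 4.3.3) on 2000 features and 20 components at resolution 0.8, with no Sox gene or reporter row among the features. Clusters were named per library from marker lists (1 gene of the ventral-midline list is not reported here), and the classes were clustered again without integration. Ependymal and mural barcodes with over 20 endothelial-marker UMIs per 10000 were set apart, and this limit was chosen after seeing the data. There were 155 barcodes within 2-fold of it, 104 of them mural. Parts of clusters named for both ependymal and endothelial markers were also set apart. In the main run no barcode was left out for a doublet call. Scrublet (scanpy 1.11.5) called 2170 non-traced barcodes (8.54%) and 0 traced ones, and its calls were left out as an alternative.

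UMIs were summed per group and scaled to 1000000 (CPM), with exact 95% Poisson intervals. Ratios carry exact conditional binomial intervals and shares exact Clopper-Pearson intervals, the latter after thinning each cell to 1000 UMIs, which left no cell out. A difference was counted when log2((CPM + 1)/(CPM + 1)) was at least 1 in size and the gene reached 5 CPM in either group. At 0 UMIs, 3 counts were taken as the limit. The scripts were tested on simulated data. The text names all 10 members, other Sox genes that reached 5 CPM, the nearest of 3 like genes per member, and genes of 2 lists. Members and lists were chosen with earlier results of these data known.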

Additional observations from a re-analysis of the deposited data

How the results depend on the processing

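No paired analysis was possible because each group was 1 library. The number of members past 2-fold stayed within 1.5 times of the reported one in all 5 comparisons under each alternative run: 10 for endothelial against ependymal cells and 0 for venous against capillary cells throughout, 2 or 3 for traced against non-traced ependymal and for arterial against capillary cells (3 with no filter on levels), and 6 to 9 for mural against capillary cells. Of 480 values for single members and alternatives, 428 moved by less than their counting interval, 51 moved by more and 1 of a member past 2-fold reversed. That one was Sox2 in mural against capillary cells, at -0.01 on the log2 scale without Scrublet calls against 2.16. Differences short of 2-fold were not counted as reversed when their sign changed, as that of Sox7 in arterial against capillary cells did with whole clusters (0.15, against -0.19). Mural Sox13 passed 2-fold without cells holding 2 foreign markers (-2.18) and with sub-types set from marker UMIs (-1.72), against -0.82. Clustering ependymal cells again at resolution 1.2 was added after seeing the data, and moved the ratio of the highest to the lowest Sox9 level over subtypes by less than 1.5 times. That ratio was 1.21 in traced cells, and 1.61 on integrated values. With 74 and 111 cells, mural levels rest on few UMIs. Library and gate cannot be told apart.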
